A study of Gallus gallus with 4 samples.

Results

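Of 17108 chicken genes with read counts, 176 formed the set described here. These genes were already well expressed in control neural tube cells. They stood higher in both libraries of cells sorted after electroporation with a vector for constitutively active MEK1. They were chosen from CPM values (the count of a gene divided by its library total, scaled to a total of 1000000). The lower of the control values had to reach 10 CPM, and the lower of the MEK1ca values had to be at least 1.5 times the higher control value. Genes on chromosome 16 and genes that spanned 400 kb or more were left out, and 2 genes met the level conditions but not these. The conditions other than the ratio were met by 8175 genes, called well-expressed genes below, and the 176 raised genes were 2.15% of them. Because the levels in MEK1ca and pCIG chose these genes, the levels, fold changes and p-values given for them describe the choice and test nothing.

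RNA-seq was performed on GFP-positive cells sorted from the trunk neural tube of chicken embryos. Tissue was taken 18 h after bilateral in ovo electroporation around stage HH 11. The paper's methods give this stage, and its legend of the sequencing design gives the next stage. In the MEK1ca group, pCIG-MEK1ca at 1 µg/µl was mixed with empty pCIG at 1 µg/µl, and 2 libraries were made. In the pCIG group the empty vector alone was given at 2 µg/µl, and 2 libraries were made. Cells of both groups were thus sorted for plasmid-borne GFP with exclusion of dying cells, and each library came from pooled embryos. Both vectors express GFP, so the sort did not select for pCIG-MEK1ca over empty pCIG. The paper describes co-transfection with 2 plasmids as nearly complete in this tissue. The share of sorted cells that carried pCIG-MEK1ca was not examined here. MEK1ca is a constitutively active form of the kinase MEK1 that was driven by a transfected vector and not by the endogenous gene. The labels call the libraries replicates and mark the pCIG libraries as a re-analysis. The errors rest on the spread between such replicates, estimated in part from other genes. A batch that follows the plasmid cannot be told apart from it.

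MEK1 phosphorylates the kinases ERK1 and ERK2, which pass growth factor signals such as FGF to the nucleus. Known early responses to ERK are transcription factors of the FOS, EGR, MYC and ETS families, together with feedback inhibitors of the pathway such as dual-specificity phosphatases and Sprouty proteins. In the posterior neural tube of vertebrate embryos, FGF and ERK activity is high in caudal progenitors and declines as cells mature into neurons. The deposited identifiers are not paired with gene names, and 0 of the 17108 were found in the name table used here. None of the 176 genes is therefore named or given a function, and the level of the MEK1 gene and markers of neural or other cell types were not checked. The genes are given by their position in the galGal4 build.

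The 176 raised genes took up more of each MEK1ca library than of each pCIG library. They held 2.63% and 2.23% of all counts in MEK1ca replicates 1 and 2, against 0.975% and 0.92% in pCIG replicates 1 and 2. Their median level was 84.4 and 77.1 CPM in the MEK1ca libraries, against 34.3 and 32.8 CPM in the pCIG libraries. The median over all 8175 well-expressed genes lay between 59.3 and 60.3 CPM in every library. The median raised gene thus stood above the median well-expressed gene in MEK1ca and below it in pCIG. The smallest count behind any of these values was 771. In such bulk samples, more RNA per cell and more cells of a type that expresses a gene cannot be told apart.

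The increase was modest for most raised genes and large for a few. Mean MEK1ca CPM over mean pCIG CPM had a median of 2.19, with quartiles of 1.88 and 2.82. Relative to the highest pCIG library, the lowest MEK1ca library was at least 2 times as high for 71 genes, at least 5 times for 10, at least 10 times for 4 and at least 20 times for 2. This ratio of the lower MEK1ca to the higher pCIG value is called the ratio below. It stayed under 2 for 105 genes. By gain in CPM, the first 10 genes held 30.3% and the first 20 held 45.8% of the total gain of all 176.

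**Figure D1:**
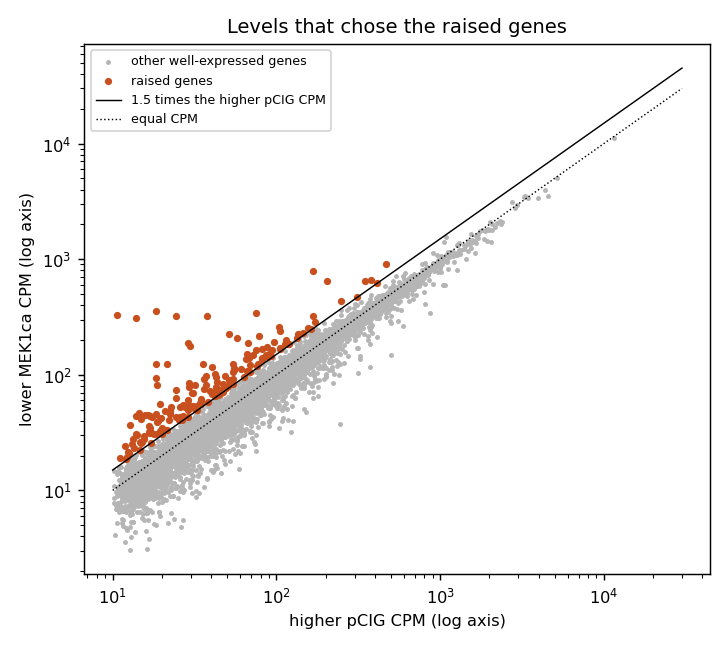
The higher pCIG level (horizontal, CPM, log axis) and the lower MEK1ca level (vertical, CPM, log axis) of the 8175 well-expressed genes. Orange points are the 176 raised genes, which lie on or above the solid line of 1.5 times by choice, and 4 of them lie at least 10 times above equality.

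In a fit across 13024 genes with edgeR's quasi-likelihood test, all 176 raised genes were tested and 163 had a Benjamini-Hochberg adjusted p under 0.05, where 8.18% of all tested genes were called higher in MEK1ca. The rule used this contrast, so nothing is read from the count. Log2 fold changes of the 176 ran from 0.65 to 5.13 with a median of 1.16, beside a median of -0.0049 over all tested genes. In the other direction 5.75% of the tested genes were called lower. Of the 8175 well-expressed genes, 7.96% were called higher and 7.71% lower. Among those outside the set, 488 were also called higher but had a ratio under 1.5.

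The largest ratio belonged to ENSGALG00000026862, on the plus strand of chromosome 9 at 13417660 to 13427011, with 4 exons. It had 329 and 380 CPM in MEK1ca, against 10.6 and 10.04 CPM in pCIG. Both MEK1ca libraries stood more than 30 times above both pCIG libraries, and the gene met the pCIG minimum only narrowly. On the log2 scale the fold change was 5.13 ± 0.09 (SE, edgeR adjusted p = 4.78e-09). The gene was taken up here by its level in pCIG, and a slightly higher minimum would have left it out.

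A gene with 3 exons on the plus strand of chromosome 4 at 12044627 to 12058058 came next, with 477 and 307 CPM in MEK1ca, against 13.9 and 10.9 CPM in pCIG. On chromosome 6, a plus-strand gene with 4 exons at 25517714 to 25527369 had 358 and 356 CPM in MEK1ca, against 18.3 and 10.8 CPM in pCIG. The MEK1ca libraries were nearly equal for the gene on chromosome 6 and differed by 1.55-fold for the gene on chromosome 4, while the pCIG libraries lay apart for the gene on chromosome 6. A single-exon gene of 1778 bases on chromosome 1 at 151896142 to 151897919 had 323 and 320 CPM in MEK1ca, against 24.2 and 16.5 CPM in pCIG. These 4 genes with a ratio of at least 10 were all compact, with spans of 1.78 to 13.4 kb and 1 to 4 exons.

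The remaining 6 of the 10 largest ratios lay between 5.14 and 8.5. A minus-strand gene of chromosome 6 with 8 exons, at 31382330 to 31425438, had 488 and 322 CPM in MEK1ca, against 37.8 and 35.2 CPM in pCIG. A gene with 16 exons on chromosome 5 at 50610382 to 50708576 had 259 and 124 CPM in MEK1ca, against 18.3 and 16.3 CPM in pCIG. This gene had the widest gap between the MEK1ca libraries among the 10, at 2.08-fold. The others lay on chromosome 6 (258 and 190 CPM in MEK1ca, 28.6 and 27.0 CPM in pCIG), chromosome 2 (240 and 177 CPM in MEK1ca, 29.6 and 24.3 CPM in pCIG), Z (137 and 123 CPM in MEK1ca, 21.4 and 19.3 CPM in pCIG) and chromosome 11 (132 and 94.7 CPM in MEK1ca, 16.2 and 18.4 CPM in pCIG). All 10 had an edgeR adjusted p under 0.05, the highest being 0.0383 for the gene on chromosome 5. Without pCIG replicate 2, the gene at 12044627 on chromosome 4 (edgeR adjusted p = 0.0809), the gene with 8 exons on chromosome 6 (0.107) and the gene on chromosome 5 (0.201) no longer passed. The gene at 25517714 on chromosome 6 did not pass without MEK1ca replicate 1 (0.201) or without MEK1ca replicate 2 (0.133), and the gene on chromosome 5 did not pass without pCIG replicate 1 (0.0796). Their log2 fold changes then lay between 3.43 and 4.86. The gene on chromosome 5 also did not pass with limma-voom (adjusted p = 0.0799) or with edgeR and no filter beyond a count above 0 (0.105).

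**Figure D2:**
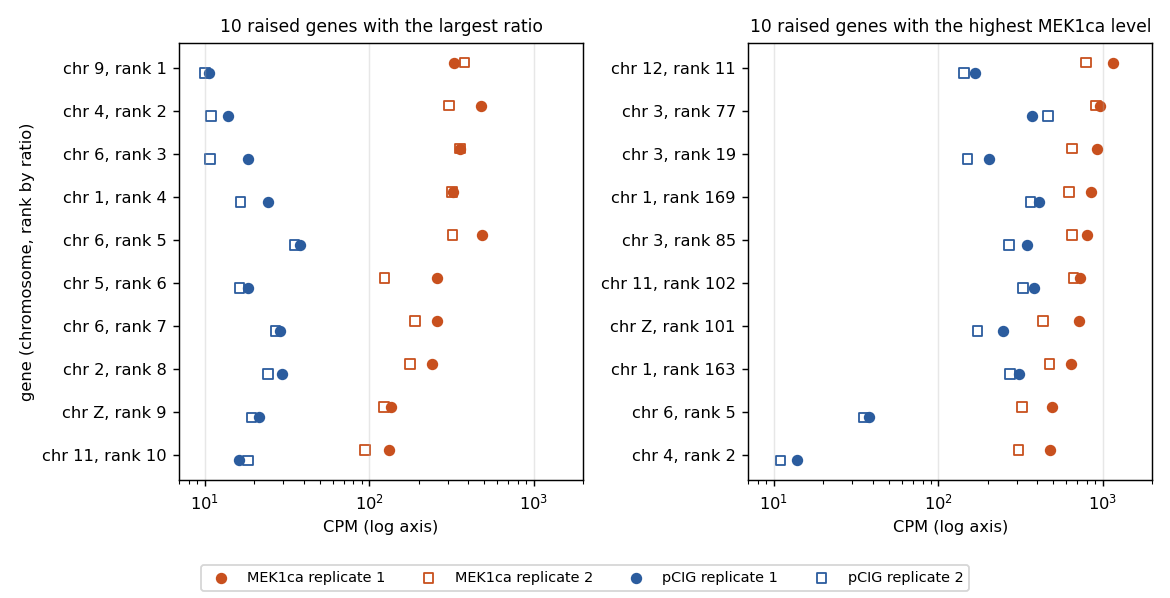
Level of each of 10 raised genes in each library (horizontal, CPM, log axis), on the left for the 10 largest ratios and on the right for the 10 highest mean MEK1ca levels. Orange marks are MEK1ca and blue marks are pCIG, filled for replicate 1 and open for replicate 2. Every MEK1ca mark lies to the right of both pCIG marks, by choice, and 2 genes appear on both sides.

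The most abundant raised gene was ENSGALG00000005499, a minus-strand gene of chromosome 12 with 14 exons at 8535420 to 8595065. It had 1146 and 787 CPM in MEK1ca, against 167 and 143 CPM in pCIG, a mean fold of 6.23 (log2 fold change 2.67, SE 0.25, edgeR adjusted p = 0.0167). It combined a high control level with a large change, and gained 811 CPM. Without pCIG replicate 2 it was at 2.57 and no longer passed (edgeR adjusted p = 0.126).

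The next levels came from genes that changed less. A short minus-strand gene of chromosome 3 with 715 exonic bases, at 60674294 to 60677648, had 954 and 906 CPM in MEK1ca, against 373 and 465 CPM in pCIG. Divided by exonic length it was the most abundant of the set, with a mean MEK1ca level of 1301 CPM per kb. Also on chromosome 3, a gene with 23 exons at 92498869 to 92574721 had 916 and 650 CPM in MEK1ca, against 203 and 150 CPM in pCIG. In both groups, replicate 1 was the higher library for this gene. The mean folds of these genes were 2.22 and 4.44.

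Of the other 7 genes with the highest MEK1ca levels, 2 belonged to the 10 largest ratios above. The other 5 had mean folds of 1.91 to 2.72 and mean pCIG levels of 209.7 to 386 CPM. They lay on chromosome 1 at 43273706 to 43305815 and at 51598550 to 51666512, on chromosome 3 at 96906122 to 96965158, on chromosome 11 at 5418071 to 5433815 and on Z at 62474981 to 62580840. The first of them did not pass the edgeR test (adjusted p = 0.0508), nor did the gene on Z (0.112). Without pCIG replicate 2, the gene on chromosome 3 with 23 exons (edgeR adjusted p = 0.146) and the one at 51598550 on chromosome 1 (0.22) were also lost, and the gene at 51598550 was lost without pCIG replicate 1 too (0.115). The gene at 43273706 passed without MEK1ca replicate 1 (1.73e-06) and without MEK1ca replicate 2 (3.12e-09). It also passed with RLE scaling (edgeR adjusted p = 0.0454), and DESeq2 called it (adjusted p = 3.55e-10) as well as the gene on Z (0.00622). With no filter beyond a count above 0, the gene with 23 exons (edgeR adjusted p = 0.0801) and the one at 51598550 (0.0738) did not pass.

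The share of raised genes differed with the control level, which the rule used both as its minimum and as the denominator of the ratio, so that nothing is read from it. By mean pCIG level, 51 of 1153 well-expressed genes under 20 CPM were raised (4.42%), as were 69 of 2411 between 20 and 50 CPM (2.86%), 35 of 2008 between 50 and 100 CPM (1.74%), 15 of 1510 between 100 and 200 CPM (0.993%) and 6 of 1093 at 200 CPM or more (0.549%). A mirrored rule, with the higher MEK1ca value at most the lower pCIG value divided by 1.5, gave 166 lowered genes. Their share also fell, with 3.47% under 20 CPM and 1.28% at 200 CPM or more.

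The limit of the ratio cut through a continuum. The 5 raised genes nearest to it had ratios of 1.501 to 1.512 and the 5 well-expressed genes just outside had 1.486 to 1.499. The gene just inside, a minus-strand gene of chromosome 7 at 39076 to 59273, had 97.4 and 94.9 CPM in MEK1ca, against 63.2 and 61.1 CPM in pCIG. The gene just outside, on chromosome 4 at 57807176 to 57923545, had 64.6 and 72.2 CPM in MEK1ca, against 43.1 and 41.7 CPM in pCIG. At the pCIG minimum, the 3 nearest raised genes had lower pCIG values of 10.01, 10.04 and 10.1 CPM, and the 3 nearest genes outside had 9.75, 9.64 and 9.47 CPM with ratios of 1.5 to 2.22.

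The raised genes were higher in MEK1ca replicate 1 than in MEK1ca replicate 2 more often than other genes were. This held for 134 of 176 raised genes (76.1%), against 3579 of the 7999 other well-expressed genes (44.7%). Set against the mean of the pCIG libraries, the median fold of the raised genes was 2.30 in MEK1ca replicate 1 and 2.04 in MEK1ca replicate 2. Among the 166 lowered genes, replicate 1 was the higher MEK1ca library for 33 (19.9%), and the median level relative to pCIG was 0.481 in MEK1ca replicate 1 and 0.565 in MEK1ca replicate 2. These values are the ones that chose the raised and lowered genes, so they describe the chosen genes and do not test a difference between the MEK1ca pools. Between the pCIG libraries, replicate 1 was the higher for 114 raised genes (64.8%), 4183 other well-expressed genes (52.3%) and 83 lowered genes (50.0%).

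**Figure D3:**
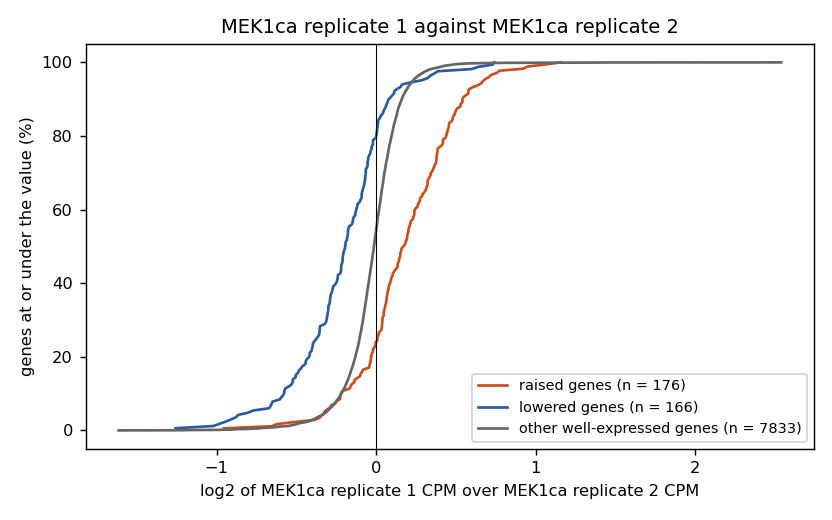
Cumulative share of genes (vertical, %) by the log2 ratio of MEK1ca replicate 1 CPM to MEK1ca replicate 2 CPM (horizontal), for 176 raised genes, 166 lowered genes and the other 7833 well-expressed genes. The curve of the raised genes is shifted to the right, with a median of 0.18, and that of the lowered genes to the left, with a median of -0.19.

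The MEK1ca libraries differed by at least 1.5-fold for 16 raised genes (9.09%) and 129 other well-expressed genes (1.61%). These 129 include 19 of the 166 lowered genes (11.4%), so such a difference was not particular to raised genes. Replicate 1 was the higher one for 13 of these 16 raised genes. The 3 exceptions included a gene on chromosome 4 at 49890856 to 49977356, with 114 and 222 CPM in MEK1ca, against 55.1 and 51.9 CPM in pCIG. A gene at 59791983 to 59835703 on the same chromosome had 186 and 287 CPM in MEK1ca, against 107 and 118 CPM in pCIG. The pCIG libraries differed that much for 3 raised genes and for 48 of the 7999 other well-expressed genes. The widest of the 3 was a gene on chromosome 13 at 17704810 to 17707611, with 149 and 124 CPM in MEK1ca, against 35.7 and 16.4 CPM in pCIG.

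The genes just given are among the 13 raised genes that edgeR did not call. Their adjusted p ran from 0.0508 to 0.157 and their log2 fold changes from 0.96 to 2.42, with SEs of 0.19 to 0.49. The highest adjusted p was that of a gene on Z at 14595541 to 14615092, which had 120 and 54.1 CPM in MEK1ca, against 31.1 and 26.3 CPM in pCIG. Of the 16 raised genes whose MEK1ca libraries differed by at least 1.5-fold, edgeR called 7 and did not call 9. DESeq2 on the same libraries called all 176 raised genes, and over all genes it called 1321 higher and 1007 lower. The rule used this contrast, so nothing is read from the count. In edgeR, the median log2 fold change of the 176 was 1.15 without pCIG replicate 1 and 1.15 without pCIG replicate 2.

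Counts in MEK1ca replicate 2 were mostly even numbers, for the raised genes as for others. They were even for 140 of 176 raised genes (79.5%) in that library, against 82 (46.6%) in MEK1ca replicate 1 and 91 (51.7%) in each pCIG library. Over all well-expressed genes the shares were 79.5% in MEK1ca replicate 2, 49.5% in MEK1ca replicate 1, and 50.6% and 51.1% in the pCIG libraries. CPM values are not altered by a factor common to all genes of a library, but 36 raised genes had odd counts in MEK1ca replicate 2. An effect that differs between genes was not tested, and halving all counts does not cover it. When the counts of MEK1ca replicate 2 were halved, 165 of the 176 were called and their median log2 fold change was 1.15. Over all tested genes, 1069 were then called higher and 752 lower. Nothing is read from the 165, since the rule used this contrast. The source of the even counts was not tested.

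Properties that the rule did not use, other than through the upper limit on span, set the raised genes apart from other well-expressed genes in a descriptive sense. The median span from first to last exon was 33.6 kb for the raised genes, with quartiles of 11.6 and 88.2 kb. It was 15.97 kb for the other 7999 well-expressed genes, with quartiles of 6.89 and 35.6 kb. The lowered genes lay between, with a median of 22.9 kb. The median number of exons was 10 for raised genes, 10 for other well-expressed genes and 8 for lowered genes. Within classes of chromosomes the median for raised genes was lower or higher than for the others. It was 10.5 against 10 on chromosomes 1 to 5 and 8 against 11 on chromosomes 6 to 10. On chromosomes 11 to 28 it was 9 against 10, and on Z 12.5 against 11. Exonic length had a median of 3.57 kb in raised genes, 2.52 kb in the others and 2.62 kb in lowered genes, so that most of the additional span was intronic, with a median of 28.2 kb against 13.0 kb in the others. At lower control levels, 119 genes of 1 to under 10 CPM in pCIG were at least doubled in MEK1ca. These low-level genes also had a longer median span (21.5 kb) and exonic length (3.12 kb) than the other well-expressed genes. Low-level genes that were not doubled were not examined, so control level and change cannot be told apart in this comparison. No test was run on these properties, since genes are not replicates.

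Taken over all chromosomes, the excess lay in the longest genes. Raised genes made up 41 of 565 well-expressed genes that spanned 100 to 400 kb (7.26%) and 34 of 915 that spanned 50 to 100 kb (3.72%). In the 4 classes under 50 kb the share was 1.4 to 1.61%. Lowered genes made up 4.42% of the longest class, 2.62% of the class of 50 to 100 kb and 1.26 to 2.24% of the shorter classes. On the smaller chromosomes 11 to 28, raised genes were 7 of 84 genes of 100 to 400 kb (8.33%) and 7 of 189 of 50 to 100 kb (3.7%), against 0.647 to 1.13% in the shorter classes. On chromosomes 1 to 5 they were 23 of 346 genes of 100 to 400 kb (6.65%) and 20 of 513 of 50 to 100 kb (3.9%). On chromosomes 6 to 10 the pattern was weaker. Raised genes there were 5 of 83 genes of 100 to 400 kb (6.02%) and 5 of 141 of 50 to 100 kb (3.55%). They were also 8 of 214 of 5 to 10 kb (3.74%). The median span there was 18.3 kb for raised and 16.7 kb for other well-expressed genes. On Z, raised genes were 6 of 50 of 100 to 400 kb (12%). They were 2 of 71 there of 50 to 100 kb (2.82%) and 1 of 33 under 5 kb (3.03%).

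**Figure D4:**
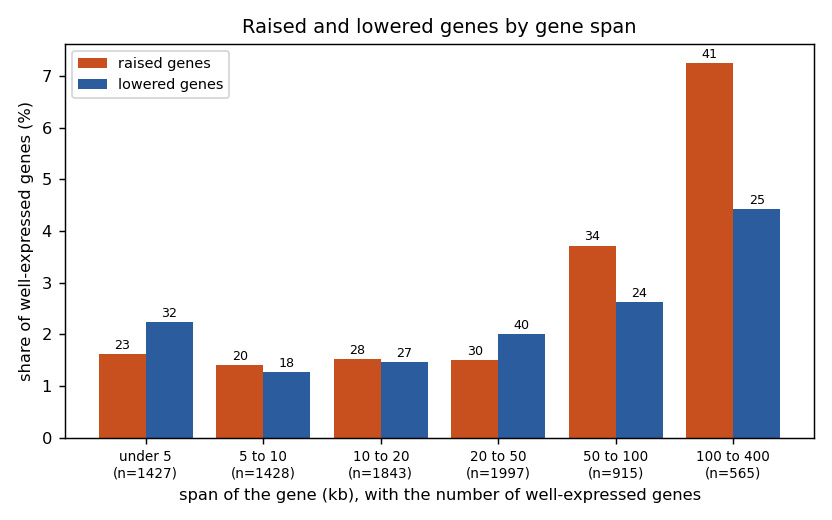
Share of well-expressed genes (vertical, %) that were raised (orange) or lowered (blue), by the span of the gene in kb (horizontal), with the number of genes above each bar. The share of raised genes is 1.4 to 1.61% in the 4 classes under 50 kb, 3.72% from 50 to 100 kb and 7.26% from 100 to 400 kb.

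Long raised genes changed by somewhat smaller factors in the median. The 41 raised genes of 100 kb or more had a median mean fold of 2.04, against 2.22 for the 135 shorter ones. Their median pCIG level was 38.9 CPM, against 31.2 CPM for the shorter ones. Fold and ratio come from the values that chose the genes, so nothing is read from how they go with span. Among the 105 raised genes with a ratio under 2 the median span was 42.9 kb, and among the 71 with a ratio of at least 2 it was 19.2 kb. Relative to the other well-expressed genes, the median span of the raised genes was 2.11 times as long, and it was 1.2 times as long for the 71 with a ratio of at least 2. When the genes were chosen without MEK1ca replicate 1 it was 1.6 times as long. The longest of all, with a span of 393 kb on chromosome 3 at 58029862 to 58422557, had 172 and 143 CPM in MEK1ca, against 88.4 and 81.5 CPM in pCIG. A gene spanning 300.1 kb on chromosome 1 at 11930694 to 12230824 was an exception, with 62.3 and 44.4 CPM in MEK1ca, against 13.8 and 12.8 CPM in pCIG, a mean fold of 4.01.

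Raised and lowered genes both lay further from their neighbours than other well-expressed genes did. The nearest annotated gene was at a median distance of 6.8 kb for raised genes, 2.04 kb for other well-expressed genes and 5.15 kb for lowered genes. It was 5.33 kb for the 119 low-level genes at least doubled in MEK1ca, and low-level genes that were not doubled were not examined. A distance of at least 50 kb was found for 22 raised genes (12.5%), 255 other well-expressed genes (3.19%) and 23 lowered genes (13.9%). The difference between raised and other well-expressed genes was present in each class of chromosomes, where the median for raised genes was 7.53 kb, against 3.06 kb for other genes, on chromosomes 1 to 5, 5.72 kb against 1.84 kb on chromosomes 6 to 10, 5.13 kb against 1.27 kb on chromosomes 11 to 28 and 25.1 kb against 3.74 kb on Z. Only 3 raised genes (1.7%) overlapped an annotated gene on the opposite strand, against 779 of the other well-expressed genes (9.74%) and 16 lowered genes (9.64%). Overlap was judged on whole spans, introns included, and overlap of exons was not examined. Whether reads were counted by strand is not stated in the sources, so that reads of these 3 may include some of their antisense partners. The plus strand carried 89 of the 176 (50.6%), and 5 raised genes had a single exon.

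Raised genes were spread over 26 chromosomes, unevenly. Chromosomes 1 to 5 held 94 of them, or 2.55% of their well-expressed genes, chromosomes 6 to 10 held 33 (2.51%), chromosomes 11 to 28 held 37 (1.33%) and Z held 12 (2.98%). The share was highest on chromosome 6, with 12 of 268 genes (4.48%), followed by chromosome 9 with 8 of 230 (3.48%) and chromosome 4 with 20 of 612 (3.27%). It was lowest on chromosomes 23 and 25, with 0 of 130 and 0 of 84 genes, and next on chromosomes 14, 10 and 15 with 1 raised gene each. Lowered genes made up 1.91% on chromosomes 11 to 28, 2.05% on chromosomes 6 to 10 and 1.9% on chromosomes 1 to 5. On Z they made up 3.97% (16 of 403), more than the raised genes did. W had 3 well-expressed genes, of which 0 were raised by the rule and 2 were called higher by edgeR, where 7.96% of all well-expressed genes were. The sexes of the pooled embryos are not given in the sources used here, and their part in the values on Z and W was not tested.

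**Figure D5:**
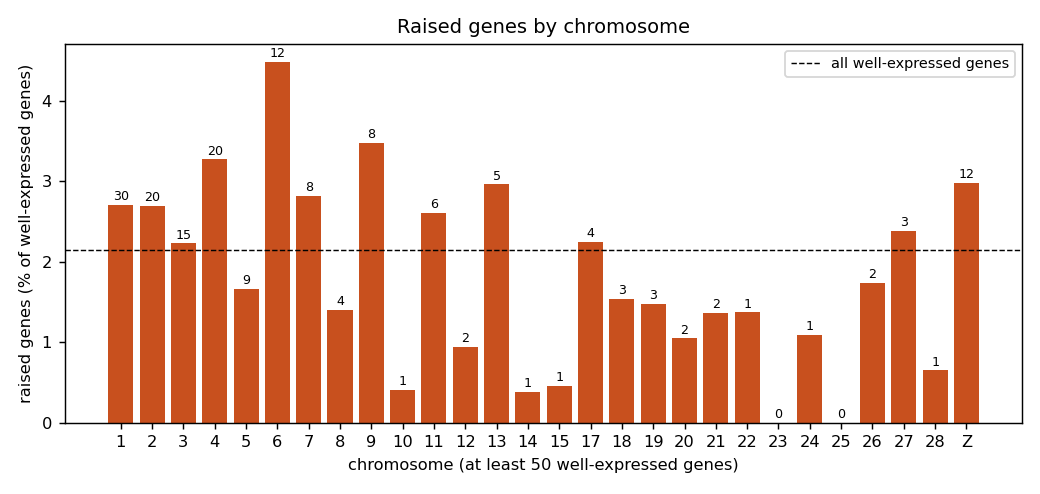
Share of well-expressed genes that were raised (vertical, %) on each chromosome with at least 50 well-expressed genes (horizontal), with the number of raised genes above each bar. The dashed line marks the share over all well-expressed genes, 2.15%, and chromosome 6 stands highest at 4.48%.

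Immediate neighbours that were both raised formed 8 pairs, which held 16 of the 176 genes (9.09%). Of the other 7999 well-expressed genes, 167 (2.09%) lay next to a raised gene. The pairs were on one strand in 5 cases and on opposite strands in 3, and there was no run of 3 adjacent raised genes. Immediate neighbours were not always close. The gap within a pair ran from 374 to 490705 bases, with others of 113703, 338423 and 440902 bases. On chromosome 1, genes with 52 and 47 exons lay head to head, 374 bases apart, the minus-strand gene at 138136838 to 138247249 and the plus-strand gene at 138247624 to 138387983. The minus-strand gene had 140 and 177 CPM in MEK1ca, against 81.5 and 71.6 CPM in pCIG. The plus-strand gene had 107 and 134 CPM in MEK1ca, against 66.5 and 56.4 CPM in pCIG. Both members of this pair were higher in MEK1ca replicate 2, unlike most raised genes, and their mean folds were 2.07 and 1.96.

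The mean folds of partners were far apart in some pairs and close in others, and their difference was not tested. On chromosome 6 the gene with 8 exons described above had a neighbour on the same strand at 31539142 to 31551526, 113703 bases away. This neighbour had 213 and 167 CPM in MEK1ca, against 81.8 and 73.5 CPM in pCIG. The mean folds of this pair were 11.1 and 2.45. On chromosome 4, a plus-strand gene at 52293415 to 52334335 had 128 and 123 CPM in MEK1ca, against 50.3 and 54.4 CPM in pCIG. Its minus-strand neighbour at 52775238 to 52982663, 440902 bases away, had 229 and 209 CPM in MEK1ca, against 54.3 and 57.4 CPM in pCIG. On chromosome 8, plus-strand genes at 15226513 to 15234354 and 15235115 to 15239108 lay 760 bases apart, with mean folds of 1.65 and 1.8. A pair on chromosome 27 between 3568746 and 3589844 had mean folds of 1.87 and 2.23.

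Raised genes also lay in shared regions, in part through the adjacent pairs counted above. With at most 1 Mb between one raised gene and the next, 6 regions held at least 3 of them. The limits of each region were set by its outermost raised genes. Its share therefore stands above the 2.15% over all well-expressed genes by construction, and nothing is read from it. On chromosome 4 between 11728003 and 12975486, 4 of 18 well-expressed genes were raised, with mean folds of 1.87 to 31.6. This was the highest number of raised genes in the 6 regions, and on Z between 36922222 and 38431898 it was 3 of 7. On chromosome 9 between 11959073 and 13427011, 3 of 13 well-expressed genes were raised, among them ENSGALG00000026862. Over all 31 genes listed in that region, edgeR called 6 higher, including the 3 raised genes that set its limits. Of all tested genes, 8.18% were called higher. The other regions were a second one on chromosome 4, with 3 of 11, and those on chromosomes 8 and 27, with 3 of 8 and 3 of 10. The regions on chromosomes 8, 27 and Z and the second on chromosome 4 each hold an adjacent pair counted above.

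Genes beside the raised genes that were not raised themselves are given as a description, since the rule removed from them any well-expressed gene with a ratio of 1.5 or more. Of 328 immediate neighbours outside the set, 266 were tested. Of these, 48 (18.0%) were called higher by edgeR, where 8.18% of all tested genes were, and 11 (4.14%) were called lower, where 5.75% were. Their median log2 fold change was 0.14. The neighbours belong to the same contrast and libraries as the raised genes.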

How the data were processed

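Libraries were made by linear cDNA amplification from sorted GFP-positive cells, 2 for MEK1ca and 2 for pCIG. The authors deposited whole-number read counts per gene, not normalised, with Subread, featureCounts and DESeq listed as tools and galGal4 as the build in the submitters' processing notes. Versions and the strand setting are not given in the sources used here. Totals were 63637195 and 76997561 counts in MEK1ca, and 77004159 and 79064166 counts in pCIG. The 37 mitochondrial genes are listed at 0. A deposited comparison table (mean count, log2 fold change with its error, statistic, p and adjusted p) was not used.

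CPM values were computed from column totals. Genes kept by filterByExpr were fitted with edgeR 4.0.16 in R 4.3.3 (TMM factors, robust quasi-likelihood test, Benjamini-Hochberg adjustment over 13024 genes, threshold 0.05). The same fit was first run on simulated counts. To pass, that check had to recover only the size of a simulated increase. The shares of increases recovered and of false calls were also recorded, but no limit was set on them and they are not given here. The SE of a log2 fold change was its absolute value divided by the square root of the quasi-likelihood F statistic. Such SEs rest in part on the spread of other genes. Span, exon number and exonic length came from the coordinates beside the counts. Genes described singly were the 10 with the largest ratio, the 10 with the highest mean MEK1ca CPM, and those nearest the limits. Others (uncalled, unequal in replicates, long, isolated, paired or clustered) were chosen after their values were seen. The gene set and its rule were chosen with earlier results of these data known. Planned lists of ERK targets and cell type markers and the check of the MEK1 gene could not be run without names.

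Alternatives were other limits of the rule, RLE scaling, library totals, DESeq2 1.42.0, limma-voom (limma 3.58.1), other count filters, a threshold of 0.01, a replicate block, and leaving out each library. Halved counts of MEK1ca replicate 2, and spans by chromosome class, by ratio and without each library, were added after seeing the data.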

Additional observations from a re-analysis of the deposited data

How the results depend on the processing

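The number of raised genes depended on the ratio asked for, with 71 at a ratio of at least 2 and 380 with a lower limit, beside 176 at 1.5. Choosing the genes without one library in turn gave 201 to 261 genes, which include the 176 by construction. Their median span over that of the other well-expressed genes was 2.11, was 1.2 for genes with a ratio of at least 2, and ran from 1.6 to 2.14 without one library, 1.6 being without MEK1ca replicate 1. Leaving out one library gave 438 to 1154 genes called higher and 202 to 900 called lower by edgeR, against 1065 and 749 with all libraries. The fewest calls came without pCIG replicate 2 (438 higher and 202 lower) and without pCIG replicate 1 (507 and 261), where the remaining pCIG library is assumed to vary like the MEK1ca libraries. Of the 176 raised genes, 127 to 172 were then called, and their median log2 fold change ran from 1.04 to 1.24. At an adjusted p under 0.01, 515 genes were called higher and 254 lower.

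The labels give both groups the replicate numbers 1 and 2 but do not say that a number marks a shared batch. Over 13024 genes, the difference of replicate 1 from 2 in MEK1ca had a correlation of 0.15 with that in pCIG. As only 2 pairs exist, pairing by number was not assumed. With the replicate block, 1582 genes were called higher and 1291 lower, 163 of the 176 raised genes were called and their median log2 fold change was 1.15. The block gave a call to the gene at 43273706 on chromosome 1 (edgeR adjusted p = 5.28e-06) and to the gene at 62474981 on Z (4.64e-10), and ended that of the gene at 50610382 on chromosome 5 (0.109). DESeq2 called all 176 raised genes, which were among 1321 genes that it called higher, and it called 1007 lower. Without the 10 most abundant genes in the total, the raised genes held 2.54% of counts in MEK1ca and 0.991% in pCIG, against 2.43% and 0.947% with them. With neighbours on one strand only, 10 raised genes lay next to another, against 16. For 25 genes described singly, 325 values under 13 alternatives included 0 reversals, 22 losses and 10 gains of a call. With 2 libraries per group, leaving out 1 library ended calls near the threshold and also some with an adjusted p under 0.01.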
